A study of Mus musculus with 3 samples.

Results

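The 43 genes described here form the core machinery of the cell division cycle: cyclins, cyclin-dependent kinases (CDKs), the proteins that inhibit them, the E2F transcription factors with their DP partners, the pocket proteins, and a few regulators of these (Cdc25 phosphatases, Wee1, Skp2, Ccnf, Trp53 and Mdm2). They were chosen by name, not by their values. All 43 symbols matched 1 gene identifier each among the 50600 genes of the count tables. By known role, 24 of the 43 are activators of the cycle and 17 are inhibitors, while Ccnf and Mdm2 were placed in neither group. Skp2, a ubiquitin ligase subunit like Ccnf, was counted among the activators.

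RNA was sequenced from mouse T-helper 1 (Th1) cells, a class of CD4+ T cell known for making interferon gamma. They were taken from strain C57BL/6NJ as primary cells, and the headers of the tables date them to 48 h in a course of times that covered Th1 and Th2 cells. There is 1 group, Th1, with replicates 1, 2 and 3, and no untreated, resting or other control group is used here. The labels name no transgene, deletion or drug, and give neither the sex nor the age of the mice. The labels give the same donor identifier for the 3 libraries, so nothing shows that they came from separate animals, and the spread between them may be technical.

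A CDK is a kinase that works only when bound to a cyclin. In G1, cyclins D1 to D3 with Cdk4 or Cdk6 phosphorylate the pocket proteins (Rb1 and its relatives), which then release E2F factors to switch on genes for DNA replication. Cyclin E with Cdk2 drives entry into S phase, cyclin A acts through S and G2, and cyclin B with Cdk1 drives mitosis. INK4 proteins block Cdk4 and Cdk6, and CIP/KIP proteins bind cyclin and CDK complexes more widely. Resting T cells are held out of the cycle, and stimulation through the antigen receptor induces D-type cyclins and rapid division.

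Depth set what could be seen. The library totals were 4742025 (replicate 1), 50627 (replicate 2) and 3543816 counts (replicate 3), so replicate 2 was far shallower than the others. Of these totals the 43 genes took 17338, 190 and 10921 counts, or 0.366%, 0.375% and 0.308%. In replicates 1 and 3, 40 of the 43 genes had at least 10 counts, against 5 of 43 in replicate 2. A gene with 0 counts could still have been present at up to the limit that 3 counts set, which is 0.633, 59.3 and 0.847 CPM (counts scaled to a fixed library total) for replicates 1, 2 and 3. Levels between genes are given as TPM, which are counts per gene length scaled to the same sum in each library. The labelled cell type fitted its markers: all 8 T cell markers and 5 of 6 Th1 markers reached 1 TPM in every library, the exception being Cxcr3 with 4, 0 and 2 counts. Tbx21, the Th1 master regulator, had 98.0, 99.6 and 52.0 TPM in replicates 1, 2 and 3. Of 14 markers of other cell types, 10 had no count in any library, and their summed level was 10.6, 27.8 and 12.6 TPM. In bulk RNA, fewer cycling cells and less RNA per cycling cell cannot be told apart.

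Promoters of cell-cycle genes are known for short recurring words: sites for E2F factors in G1/S genes, and in G2/M genes the word TTTGAA, called the cell-cycle homology region and bound by the DREAM complex, near CCAAT boxes bound by NF-Y. RefSeq promoter windows on GRCm38.p6, the same assembly as mm10, were matched for 32 of the 43 genes. There were 41 windows, each with 250 bases before and 50 after an annotated start. The windows were searched on both strands for the E2F words TTTCCCGC, TTTGGCGC, TTTCGCGC and TTTGCCGC, and for TTTGAA and CCAAT. The 4 windows below were chosen as the clearest examples of each kind: Cdk1 with all 3 kinds of word, Ccnb2 with the G2/M kinds, and Cdc25a and Rbl1 with an E2F word. Capitals mark the words, CCAAT read on the other strand appears as ATTGG, and no word overlaps another.
Cdk1, chr10:69352863-69353162, minus strand: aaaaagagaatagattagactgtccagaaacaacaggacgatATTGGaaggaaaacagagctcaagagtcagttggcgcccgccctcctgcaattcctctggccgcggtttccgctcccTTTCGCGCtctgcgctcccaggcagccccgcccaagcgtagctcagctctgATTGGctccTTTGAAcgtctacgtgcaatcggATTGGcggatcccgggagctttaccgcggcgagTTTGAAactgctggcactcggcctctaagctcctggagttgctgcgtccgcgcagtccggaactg
Ccnb2, chr9:70421505-70421804, minus strand: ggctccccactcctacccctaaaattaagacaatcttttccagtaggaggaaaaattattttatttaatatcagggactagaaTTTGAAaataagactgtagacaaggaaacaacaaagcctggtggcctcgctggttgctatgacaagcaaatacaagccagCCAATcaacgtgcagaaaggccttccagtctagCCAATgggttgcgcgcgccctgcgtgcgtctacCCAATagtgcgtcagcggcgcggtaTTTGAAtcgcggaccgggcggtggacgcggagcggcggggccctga
Cdc25a, chr9:109875329-109875628, plus strand: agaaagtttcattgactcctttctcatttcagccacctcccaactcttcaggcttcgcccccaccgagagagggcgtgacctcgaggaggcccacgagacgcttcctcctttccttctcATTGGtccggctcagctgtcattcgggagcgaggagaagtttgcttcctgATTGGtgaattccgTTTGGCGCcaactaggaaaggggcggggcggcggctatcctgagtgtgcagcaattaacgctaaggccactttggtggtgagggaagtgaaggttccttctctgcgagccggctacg
Rbl1, chr2:157204485-157204784, minus strand: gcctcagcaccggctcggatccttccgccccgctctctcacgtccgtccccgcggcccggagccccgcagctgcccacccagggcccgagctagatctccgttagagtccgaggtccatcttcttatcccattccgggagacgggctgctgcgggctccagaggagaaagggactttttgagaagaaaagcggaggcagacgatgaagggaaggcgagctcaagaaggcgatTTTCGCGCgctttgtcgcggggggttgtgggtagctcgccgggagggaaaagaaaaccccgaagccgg
The Cdk1 window held TTTCGCGC at -131, TTTGAA at -71 and -15, and CCAAT boxes at -208, -80 and -48, counted in bases from the annotated start. The Ccnb2 window held TTTGAA at -167 and at 4, with CCAAT boxes at -87, -54 and -21. Cdc25a had TTTGGCGC at -67 and Rbl1 had TTTCGCGC at -18. Across the 41 windows, 10 held an E2F word (24.4%, in 9 genes), against 2.26% of all 32851 windows of the table. TTTGAA, with or without CCAAT, was in 10 of the 41 windows (24.4%), against 17.9% of all windows, and CCAAT in 20 (48.8%), against 37.4%. TTTGAA together with at least 2 CCAAT boxes was in 5 windows (12.2%; E2f2, E2f3, Ccnb2, Cdk1 and Ccnf), against 2.09% of all windows. A match is a description of the letters and not a measured binding site. The windows of one gene can overlap each other, so they are not independent.

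Nearly the whole machinery was detected, if reads were counted on the right strand, which was not tested. In replicates 1 and 3, 40 of the 43 genes (93.0%) reached 1 TPM, against 44.3% of all protein-coding genes, and 33 (76.7%) did so in all 3 libraries, against 29.4%. The genes under 1 TPM in replicates 1 and 3 were Cdkn1c, Cdkn2a and Cdkn2b, all of them CDK inhibitors. The 7 further genes missing from replicate 2 (Cdk2, Skp2, Tfdp2, Cdc25c, Wee1, Cdkn2d and E2f7) had no count there, in a library where 1 count is worth many TPM. The median level of the 43 genes on the log2(TPM + 1) scale was 4.34, 3.92 and 3.33 in replicates 1, 2 and 3, against 0.72, 0 and 0.54 for all protein-coding genes. Across the 43 genes, log2(TPM + 1) in replicates 1 and 3 had a Pearson r of 0.95 and a Spearman rho of 0.97, a description across genes that are not independent replicates.

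**Figure D1:**
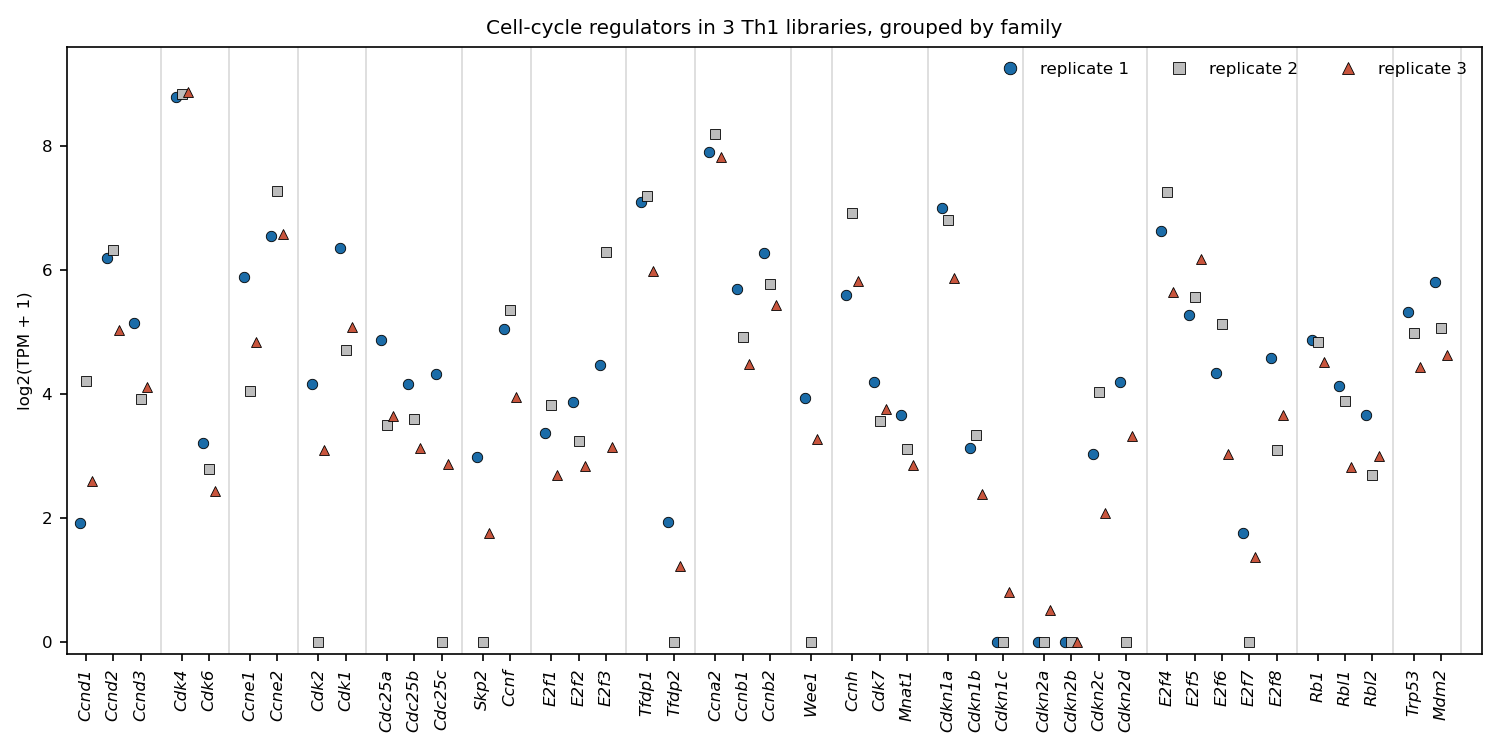
Level of each of the 43 cell-cycle regulators as log2(TPM + 1) in the 3 Th1 libraries, with genes on the x axis grouped by family between grey lines. Circles are replicate 1, squares replicate 2 and triangles replicate 3. Cdk4 and Ccna2 stand highest, and Cdkn1c, Cdkn2a and Cdkn2b lie at or near 0.

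Cdk4, the kinase partner of the D-type cyclins (ENSMUSG00000006728.12, chromosome 10, 127063534 to 127067920, plus strand, mm10), had the highest level of the set in each library. Its counts were 3076, 36 and 3011 in replicates 1, 2 and 3, or 442, 457 and 470 TPM, a mean of 457 ± 14.0 TPM (SD, n = 3). The 95% counting interval of replicate 2 alone ran from 320 to 633 TPM, so this SD is no measure of stability. In CPM the log2 ratio of replicate 1 to replicate 3 was -0.39, and Cdk4 was among the genes called below as varying between libraries. Its close relative Cdk6 had 248, 2 and 122 counts, or 8.28, 5.90 and 4.42 TPM. Cdk4 therefore held 98.2%, 98.7% and 99.1% of the summed TPM of the pair. Cdk4 over Cdk6 gave log2 ratios, each with its 95% exact counting interval, of 5.74 (5.55 to 5.93), 6.28 (4.32 to 9.38) and 6.73 (6.47 to 7.005), which is 53.4-fold in replicate 1 and 106-fold in replicate 3. The direction was shared by the 3 libraries while its size differed between replicates 1 and 3 by more than counting error. Of the exonic positions of Cdk4, 19.7% are also exons of Tspan31, a gene on the other strand, with 247, 1 and 198 counts.

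Among the D-type cyclins, which bind Cdk4 and Cdk6, cyclin D2 was highest and cyclin D1 low. Ccnd2 had 1455, 18 and 590 counts in replicates 1, 2 and 3, or 72.2, 79.0 and 31.8 TPM. Ccnd3 had 643, 3 and 281 counts, or 34.2, 14.1 and 16.2 TPM. Ccnd1 had 28, 2 and 47 counts, or 2.78, 17.5 and 5.06 TPM. The order was Ccnd2, Ccnd3, Ccnd1 in replicates 1 and 3, while the 2 and 3 counts of Ccnd1 and Ccnd3 in replicate 2 give no order between them. Ccnd2 over Ccnd3 had log2 ratios of 1.08 (0.94 to 1.21), 2.48 (0.71 to 4.89) and 0.97 (0.76 to 1.18), so about the same in the deep libraries. Ccnd2 over Ccnd1 gave 4.70 (4.16 to 5.30) in replicate 1, 2.17 (0.11 to 5.32) in replicate 2 and 2.65 (2.22 to 3.11) in replicate 3, a direction shared by all libraries. Ccnd1 shares 23.4% of its exonic positions with LTO1 on the other strand, and its CPM was lower in replicate 1 than in replicate 3.

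The INK4 inhibitors, which bind Cdk4 and Cdk6 and keep cyclin D away, were split between present and near absent members. Cdkn2d (p19 INK4d) had 58, 0 and 28 counts in replicates 1, 2 and 3, or 17.2, 0 and 9.02 TPM. Cdkn2c (p18 INK4c) had 41, 1 and 17 counts, or 7.13, 15.4 and 3.21 TPM. Cdkn2a, whose locus encodes p16 INK4a and Arf, had 0, 0 and 1 count, and Cdkn2b (p15 INK4b) had no count in any library. A count of 0 allows Cdkn2b up to 1.01 TPM in replicate 1, 88.9 TPM in replicate 2 and 1.09 TPM in replicate 3, so replicate 2 says little about it. In the deep libraries the members present were separated from those near 0. Cdkn2c was 7.09-fold (replicate 1) and 2.94-fold (replicate 3) above the level that 3 counts of Cdkn2b would give. The log2 counting intervals of Cdkn2c over Cdkn2b began at 2.46 and 1.10. Against Cdkn2d, Cdkn2c had log2 ratios of -1.27 (-1.89 to -0.67) in replicate 1 and -1.49 (-2.45 to -0.57) in replicate 3. None of the INK4 genes shares exonic positions with a gene of the other strand. Cdk4 stood far above Cdkn2c, with log2 ratios of 5.95 (5.51 to 6.44), 4.90 (2.33 to 10.2) and 7.19 (6.51 to 7.98) in replicates 1, 2 and 3. Cdkn2d, the higher of the INK4 genes in the deep libraries, was not paired with Cdk4.

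The activator E2F factors, which switch on replication genes, ranged from 9.33 to 21.0 TPM in replicate 1 and from 5.47 to 7.83 TPM in replicate 3. E2f3 had 216, 9 and 74 counts in replicates 1, 2 and 3, or 21.0, 77.5 and 7.83 TPM. E2f2 had 142, 1 and 59 counts, or 13.6, 8.46 and 6.13 TPM. E2f1 had 63, 1 and 34 counts, or 9.33, 13.1 and 5.47 TPM. E2f3 was the highest of them in each library, but its intervals against both others left out 0 in replicate 1 and included it in replicate 3. E2f2 over E2f3 had log2 ratios of -0.63 (-0.95 to -0.32), -3.20 (-8.65 to -0.34) and -0.35 (-0.87 to 0.16). The log2 ratio of E2f1 to E2f3 was -1.17 (-1.60 to -0.76) in replicate 1, -2.57 (-8.02 to 0.29) in replicate 2 and -0.52 (-1.15 to 0.09) in replicate 3. In replicate 2 the interval of E2f3 thus left out 0 against E2f2 and included it against E2f1, on 9 counts against 1 for each. E2f1 and E2f2 had a log2 ratio of -0.54 (-0.99 to -0.10) in replicate 1 and -0.16 (-0.82 to 0.47) in replicate 3, and its sign was the other way in replicate 2, where each had 1 count.

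Of the DP proteins, which pair with E2F factors so that they bind DNA, Tfdp1 made up nearly all of the transcript. Tfdp1 had 1069, 13 and 451 counts in replicates 1, 2 and 3, or 136, 146 and 62.3 TPM. Tfdp2 had 84, 0 and 37 counts, or 2.80, 0 and 1.34 TPM. The log2 ratio of Tfdp1 to Tfdp2 was 5.60 (5.28 to 5.94) in replicate 1 and 5.54 (5.06 to 6.07) in replicate 3, equal within counting error. In replicate 2 Tfdp1 was 16.6-fold above the level that 3 counts of Tfdp2 would give, and the log2 counting interval began at 3.54. Neither gene shares exonic positions with a gene of the other strand.

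The repressor E2F factors were led by E2f4 and E2f5, the members that work with the pocket proteins Rbl1 and Rbl2, and their order differed between the deep libraries. E2f4 had 516, 9 and 237 counts in replicates 1, 2 and 3, or 98.3, 152 and 49.0 TPM. E2f5 had 143, 2 and 251 counts, or 37.5, 46.3 and 71.5 TPM. E2f4 over E2f5 had log2 ratios of 1.39 (1.12 to 1.67) in replicate 1, 1.71 (-0.56 to 4.96) in replicate 2 and -0.54 (-0.81 to -0.28) in replicate 3, so E2f4 was the higher in replicate 1 and the lower in replicate 3. E2f5 (chromosome 3, 14578641 to 14606309, plus strand, mm10) shares 26 bp, 1.46% of its exonic positions, with 1810022K09Rik on the other strand. That partner had 131, 3 and 63 counts. E2f4 has no such partner.

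E2f6, a repressor that does not need pocket proteins, had 100, 2 and 34 counts, or 19.3, 34.1 and 7.12 TPM. The atypical repressors E2f7 and E2f8, which bind DNA without a DP partner, differed in level. E2f8 had 267, 1 and 125 counts, or 22.9, 7.59 and 11.7 TPM, while E2f7 had 46, 0 and 28 counts, or 2.38, 0 and 1.58 TPM. E2f8 was above E2f7 with a log2 ratio of 3.26 (2.81 to 3.75) in replicate 1 and 2.89 (2.28 to 3.53) in replicate 3. E2f8 shares 11.2% of its exonic positions with Gm2788 on the other strand.

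Among the pocket proteins, which hold E2F factors in check, Rb1 was the highest. Rb1 had 365, 4 and 258 counts in replicates 1, 2 and 3, or 28.3, 27.5 and 21.8 TPM. Rbl1 (p107), itself an E2F target in other cells, had 211, 2 and 72 counts, or 16.4, 13.8 and 6.10 TPM. Rbl2 (p130), the member typical of resting cells, had 189, 1 and 104 counts, or 11.7, 5.46 and 6.98 TPM. Rb1 held 50.2%, 58.8% and 62.5% of their summed TPM. The order of Rbl1 and Rbl2 did not hold: their log2 ratio was 0.49 (0.20 to 0.78) in replicate 1 and -0.20 (-0.65 to 0.25) in replicate 3. Rb1 shares 14.9% of its exonic positions with Rcbtb2 and Lpar6 on the other strand, and Rbl2 shares 21.0% with Aktip and Gm45464, while Rbl1 shares none.

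At the step from G1 to S, cyclin E2 was above cyclin E1. Ccne2 had 696, 13 and 656 counts in replicates 1, 2 and 3, or 93.0, 154 and 95.2 TPM. Ccne1 had 330, 1 and 144 counts, or 57.9, 15.5 and 27.4 TPM. For Ccne1 over Ccne2 the log2 ratio was -0.68 (-0.88 to -0.49), -3.31 (-8.72 to -0.57) and -1.79 (-2.07 to -1.53), so all libraries gave the same direction and replicates 1 and 3 different sizes. Ccne2 shares 17.4% of its exonic positions with Ints8 on the other strand, which had 866, 4 and 1102 counts. Cdk2, the kinase partner of cyclins E and A, had 224, 0 and 92 counts, or 16.8, 0 and 7.51 TPM. The counting interval of Cdk2 in replicate 2 reached up to 24.5 TPM, so its absence there was not distinguishable from its level in the other libraries.

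Cdk2 is controlled in both directions, by the phosphatase Cdc25a and the CIP/KIP inhibitors. Cdc25a had 483, 2 and 182 counts in replicates 1, 2 and 3, or 28.1, 10.3 and 11.5 TPM. Cdkn1a (p21), the CIP/KIP member that p53 induces, had 604, 6 and 253 counts, or 127, 111 and 57.7 TPM, and ranked 4 of 43 in replicate 1 and 6 of 43 in replicate 3. Cdkn1b (p27), the member that holds resting T cells out of the cycle, had 75, 1 and 38 counts, or 7.70, 9.07 and 4.24 TPM. Cdkn1a was thus by far the most abundant of the family. It held 94.3%, 92.5% and 92.1% of the summed CIP/KIP transcript in replicates 1, 2 and 3. The log2 ratio of Cdkn1b to Cdkn1a was -4.04 (-4.41 to -3.70), -3.62 (-9.14 to -0.58) and -3.77 (-4.30 to -3.27), with a mean of -3.81 ± 0.22 (SD, n = 3). The ratio was equal within counting error in replicates 1 and 3, while that of replicate 2 rests on 1 count against 6 and cannot show its size. Neither gene shares exonic positions with a gene of the other strand. Cdkn1c (p57) had 0, 0 and 3 counts. In replicate 1 Cdkn1a was 185-fold above the level that 3 counts of Cdkn1c would give, and the log2 counting interval began at 7.23. In replicate 3 it was 77.4-fold above Cdkn1c, with a log2 ratio of 6.27 (4.71 to 8.56). Skp2, the F-box protein that sends p27 to degradation, had 116, 0 and 37 counts, or 6.88, 0 and 2.38 TPM. Skp2 and Cdkn1b were within counting error of each other in replicate 1, with a log2 ratio of -0.16 (-0.59 to 0.28), and Skp2 was lower in replicate 3, at -0.83 (-1.52 to -0.14).

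The S, G2 and M phase genes had a higher median than the G1 and the G1/S genes in each library. On the log2(TPM + 1) scale it was 5.37, 4.82 and 4.21 in replicates 1, 2 and 3 over 8 genes, against 4.16, 3.98 and 3.16 for 14 G1 genes and 4.25, 3.41 and 3.06 for 16 G1/S genes. The genes within a group range widely, from 14.2 to 239 TPM among the S, G2 and M genes in replicate 1, so the medians are given with no test. The groups also differ in role. Wee1 was the only inhibitor among the S, G2 and M genes. The G1 genes included the INK4 inhibitors, E2f4, E2f5 and the pocket proteins, and the G1/S genes the CIP/KIP inhibitors, E2f6, E2f7 and E2f8. The part of role in these medians was not tested. Ccna2, cyclin A2 (ENSMUSG00000027715.9, chromosome 3, 36564865 to 36572150, minus strand, mm10), had 2092, 29 and 1809 counts, or 239, 293 and 225 TPM, the level next to that of Cdk4 in each deep library. It shares 12.5% of its exonic positions with Exosc9 on the other strand, which had 3567, 58 and 5048 counts.

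The mitotic kinase Cdk1 and its B-type cyclins were all present, below Ccna2. Cdk1 had 854, 3 and 319 counts in replicates 1, 2 and 3, or 80.8, 25.1 and 32.8 TPM. Ccnb2 had 250, 2 and 127 counts, or 76.3, 53.9 and 42.1 TPM, and Ccnb1 had 458, 3 and 177 counts, or 50.7, 29.4 and 21.3 TPM. The promoters of Cdk1 and Ccnb2 are those printed above with TTTGAA and CCAAT. Per length, Ccnb1 was below Ccnb2, with log2 ratios of -0.59 (-0.81 to -0.36) in replicate 1 and -0.98 (-1.32 to -0.64) in replicate 3. In counts alone Ccnb1 was the higher of the pair. The Ccnb2 value is uncertain because a named pseudogene, Ccnb2-ps, had 119, 4 and 130 counts, and how reads were divided between the near copies is not given in the sources used here. Cdk1 exceeded Cdk2 with log2 ratios of 2.26 (2.05 to 2.48) in replicate 1 and 2.13 (1.79 to 2.48) in replicate 3, equal within counting error.

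The switch that turns Cdk1 on is set by Cdc25 phosphatases, which remove the phosphates that Wee1 adds. Wee1 had 104, 0 and 58 counts in replicates 1, 2 and 3, or 14.2, 0 and 8.61 TPM. Cdc25b had 135, 1 and 57 counts, or 16.9, 11.1 and 7.76 TPM, and Cdc25c had 79, 0 and 24 counts, or 19.0, 0 and 6.27 TPM. Cdc25a was above both in replicates 1 and 3, by log2 ratios of 0.73 (0.46 to 1.02) and 0.57 (0.13 to 1.02) against Cdc25b, and of 0.56 (0.22 to 0.93) and 0.88 (0.26 to 1.55) against Cdc25c. Cdc25b and Cdc25c did not differ beyond counting error in replicate 1, at -0.17 (-0.58 to 0.25), or in replicate 3, at 0.31 (-0.41 to 1.06). Cdk1 was above Wee1 with log2 ratios of 2.51 (2.21 to 2.82) and 1.93 (1.52 to 2.36). Ccnf, cyclin F, an F-box protein that binds no CDK, had 214, 3 and 88 counts, or 32.3, 40.0 and 14.4 TPM.

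The CDK-activating kinase, a complex of Cdk7, cyclin H and Mnat1 that phosphorylates other CDKs, had unequal transcripts. Ccnh had 316, 9 and 339 counts in replicates 1, 2 and 3, or 47.5, 120 and 55.4 TPM. Cdk7 had 281, 2 and 188 counts, or 17.3, 10.9 and 12.6 TPM, and Mnat1 had 134, 1 and 66 counts, or 11.6, 7.67 and 6.22 TPM. The order was Ccnh, Cdk7, Mnat1 in replicates 1 and 3, while 2 counts of Cdk7 and 1 of Mnat1 give no order between them in replicate 2. For Ccnh over Cdk7 the log2 ratio was 1.46 (1.22 to 1.70), 3.46 (1.19 to 6.71) and 2.14 (1.88 to 2.41), and that of Cdk7 to Mnat1 was 0.57 (0.27 to 0.88), 0.50 (-3.76 to 6.39) and 1.01 (0.60 to 1.44).

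Trp53, the p53 damage-response factor, and Mdm2, its ubiquitin ligase and also its target, were at similar levels. Mdm2 had 595, 4 and 239 counts in replicates 1, 2 and 3, or 54.7, 32.5 and 23.9 TPM. Trp53 had 338, 3 and 164 counts, or 39.0, 30.6 and 20.6 TPM. For Mdm2 over Trp53 the log2 ratio was 0.49 (0.29 to 0.68) in replicate 1, 0.09 (-2.48 to 2.86) in replicate 2 and 0.21 (-0.08 to 0.51) in replicate 3, so only the interval of replicate 1 left out 0.

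**Figure D2:**
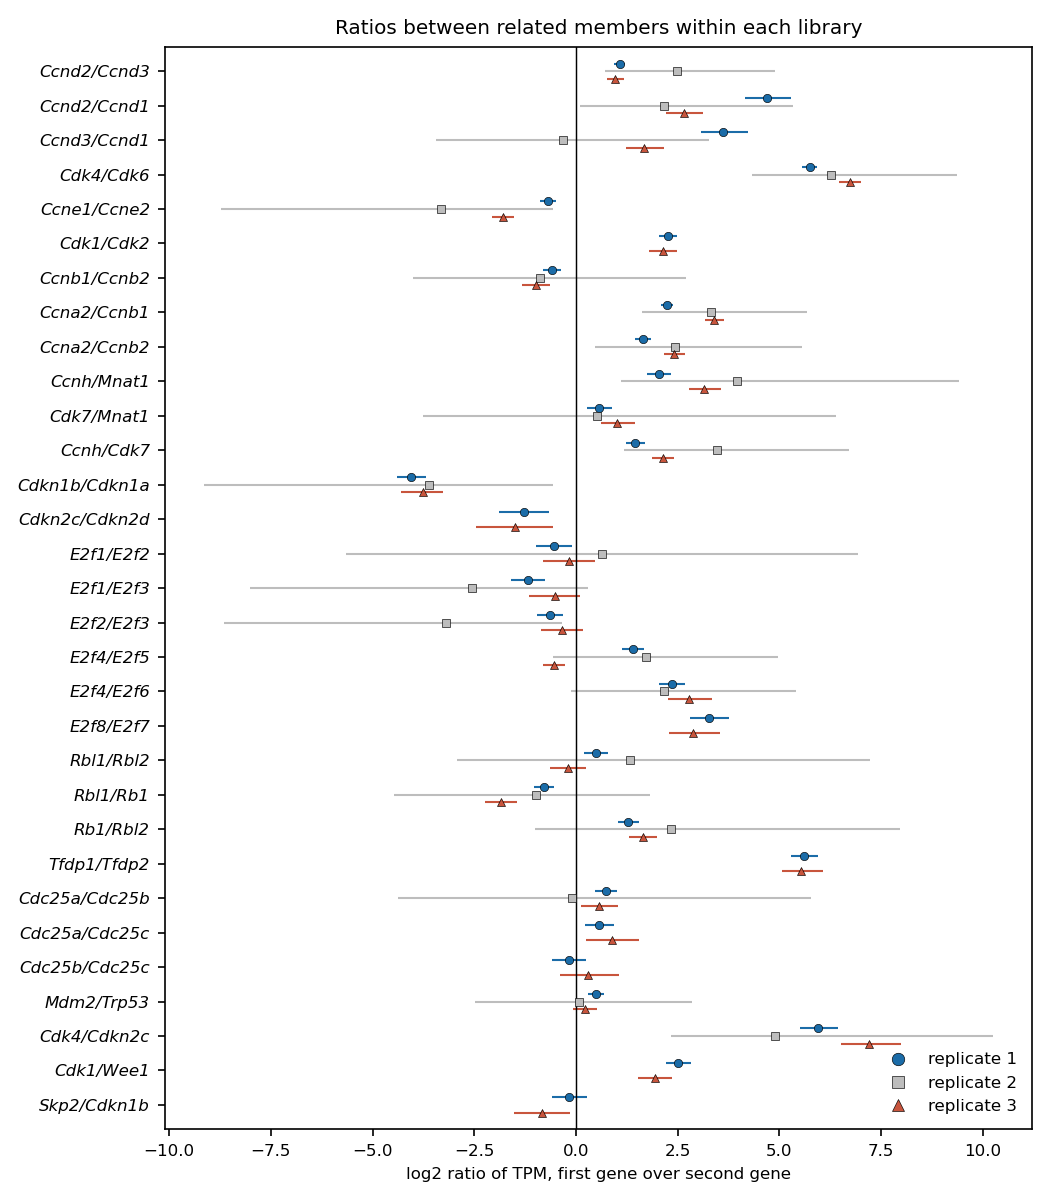
Log2 ratio of TPM, the named first gene over the second, for 31 pairs of related genes in each library. Circles are replicate 1, squares replicate 2 and triangles replicate 3, with 95% exact counting intervals as lines and a black line at 0. Cdk4 over Cdk6 and Tfdp1 over Tfdp2 lie far to the right, Cdkn1b over Cdkn1a far to the left, and E2f4 over E2f5 on both sides of 0.

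In all, 36 pairs of related genes were compared within each library, where scaling between libraries cancels. A ratio could be formed in both deep libraries for 31 pairs, and for 23 of these the interval left out 0 on the same side in replicates 1 and 3. The sign differed between replicates 1 and 3 in 3 pairs: E2f4 and E2f5, Rbl1 and Rbl2, and Cdc25b and Cdc25c. Of 23 pairs with a ratio in all 3 libraries, 18 had the same sign in each. In replicate 2 the interval left out 0 for 13 of the 36 pairs, of which 11 had a ratio there and the others a count of 0 in the second gene. An exact two-sided sign-flip permutation test over the libraries cannot give a p below 0.25 with 3 libraries or 0.50 with 2, and the smallest p adjusted over the 31 pairs by Benjamini-Hochberg was 0.43, so no pair passed. The intervals cover counting error only, since reads copied by PCR are not independent molecules.

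Activators as a group lay above inhibitors, by an amount that depended on which members were used. The median log2(TPM + 1) of the 24 activators was 4.66, 3.98 and 3.70 in replicates 1, 2 and 3, and that of the 17 inhibitors 4.12, 3.33 and 3.02. The difference was 0.54, 0.65 and 0.68, a mean of 0.62 ± 0.07 (SD, n = 3). Among members with no opposite-strand exons, 13 activators and 11 inhibitors, it was 0.34, -0.07 and 0.12, a mean of 0.13 ± 0.20 (SD, n = 3), which is within its own spread. By mean TPM over the libraries the highest inhibitors were E2f4, Cdkn1a and E2f5, and each was above the median of the activators in each library. In replicate 1 Trp53, at 39.0 TPM, was above E2f5, at 37.5 TPM.

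Opposite-strand exons are given throughout because the file headers name strand setting 1 for the counting, while the strandedness of the library kit is not given in the sources used here. With a kit that reads the opposite strand, the levels and ranks printed here would be those of RNA from the other strand of each gene, and which of these holds was not tested. Of the 43 genes, 17 share exonic positions with a gene of the other strand, in 20 pairs of gene and partner, and 26 share none. Over all 50600 genes, detected or not, 8189 have such exons, a smaller share. The shared part ran from 0.386% of the exonic positions of Ccnh, with Rasa1, to 30.7% of those of Cdkn1c, with Gm44732. It was at least 10% in 8 genes: Ccnd1, Cdk4, Ccne2, Ccna2, Cdkn1c, E2f8, Rb1 and Rbl2. It was 7.86% in Ccnd2 (Gm43126 and 9330179D12Rik), 4.11% in Ccnd3 (Bysl), 2.82% in Cdk7 (Ccdc125), 2.63% in Cdk6 (Gm17590), 2.47% in Cdc25b (Spef1), 0.955% in E2f7 (1700020G17Rik) and 0.547% in Cdk2 (Pmel).

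Several partners had more counts than the cell-cycle gene they face. Gm43126, 429 bp long, lies with 86.7% of its exonic positions under exons of Ccnd2. It had 2308, 35 and 3133 counts in replicates 1, 2 and 3, or 5380 counts per kb in replicate 1, against 155 counts per kb for Ccnd2. Bysl, opposite Ccnd3, had 3162, 27 and 4296 counts. Across the 20 pairs, the partner had the higher counts per kb in 12 pairs in replicate 1, 11 in replicate 2 and 11 in replicate 3. The share over all pairs of the whole table was not computed, so these numbers do not mark out the cell-cycle genes. In replicate 2 they rest on few counts, and some genes and partners had none there.

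**Figure D3:**
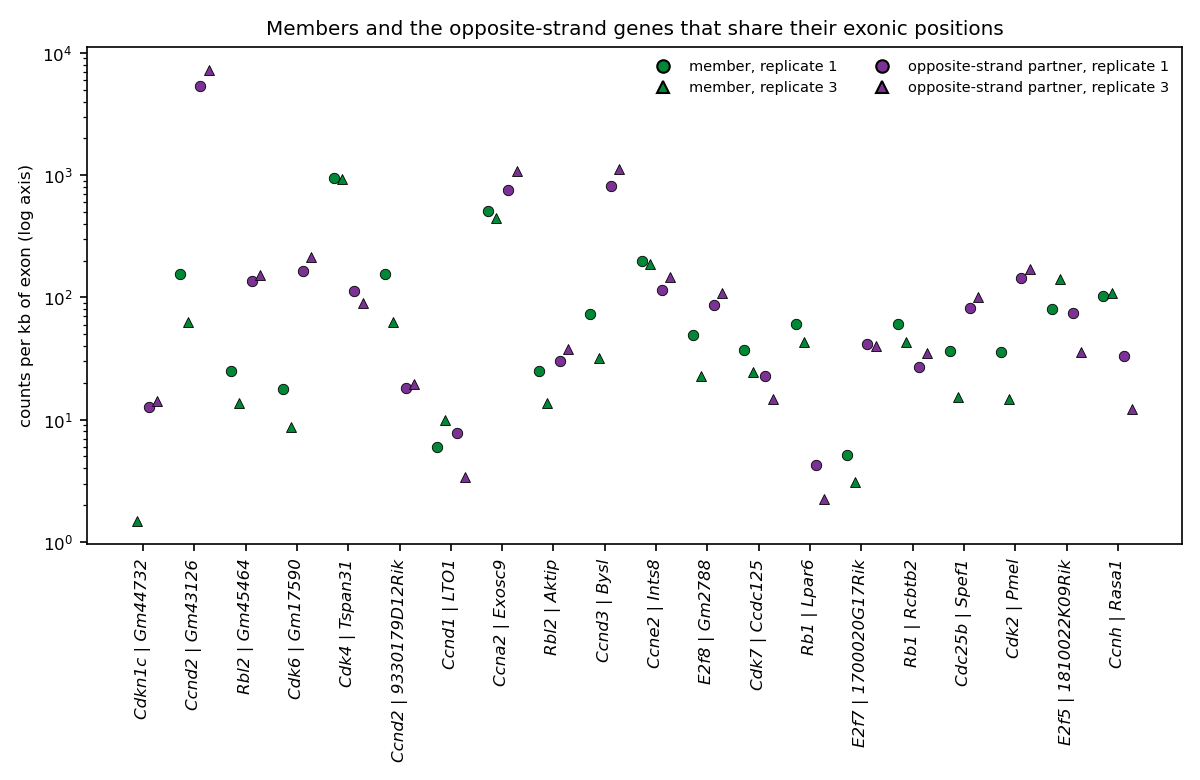
Counts per kb of exon (log axis) of each cell-cycle gene (green) and of the opposite-strand gene that shares exonic positions with it (purple), in replicate 1 (circles) and replicate 3 (triangles). The pairs run from left to right by the share of the partner's exonic positions that is shared, largest at the left, and a value of 0 (Cdkn1c in replicate 1) cannot be drawn. Gm43126 stands far above Ccnd2, and Cdk4 above Tspan31.

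Replicates 1 and 3 differed in a way that followed opposite-strand exons, in these genes as in all genes. In replicate 1, 52.7% of all counts lay in genes with opposite-strand exons, in replicate 2 57.8% and in replicate 3 72.2%. The 24 cell-cycle genes without such exons and with at least 50 counts in replicates 1 and 3 together all had a higher CPM in replicate 1, with a median log2 ratio of 0.84 and a range of 0.42 to 1.30. The 5857 genes of that kind in the whole table also had a median of 0.84, and 94.8% of them were above 0. For the 16 cell-cycle genes with opposite-strand exons the median was 0.23, against -0.22 for 4162 genes of that kind, and 10 of the 16 were above 0, against 46.4%. Over the 40 genes, 34 were above 0, against 74.7% of 10019 genes.

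The 6 genes below 0 in CPM all have opposite-strand exons. They were E2f5 at -1.23 (-1.54 to -0.93), Ccnd1 at -1.17 (-1.90 to -0.46), Ccnh at -0.52 (-0.75 to -0.30), Cdk4 at -0.39 (-0.46 to -0.32), Ccne2 at -0.33 (-0.49 to -0.18) and Ccna2 at -0.21 (-0.30 to -0.12). The partners of E2f5, Ccnd1 and Ccnh went the other way, with ratios of 0.64 for 1810022K09Rik, 0.78 for LTO1 and 1.01 for Rasa1. Those of Cdk4, Ccne2 and Ccna2 went the same way, with -0.10 for Tspan31, -0.77 for Ints8 and -0.92 for Exosc9. Of 18 pairs in which gene and partner both had at least 50 counts, 14 had opposite signs (77.8%), against 77.6% of 2002 such pairs over all genes. The part that shared positions play in any of these levels was not tested. Scaling matters for the sign: against CPM, TMM scaling (edgeR) shifts every log2 ratio by -0.45 and leaves 29 of 40 genes above 0, and DESeq2 size factors shift it by -0.56 and leave 27. Of the 24 genes without opposite-strand exons, 23 stay above 0 with TMM (Wee1 does not) and 21 with DESeq2 size factors (Wee1, E2f1 and Ccnb2 do not). Of the 16 genes with such exons, 6 stay above 0 under either scaling.

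**Figure D4:**
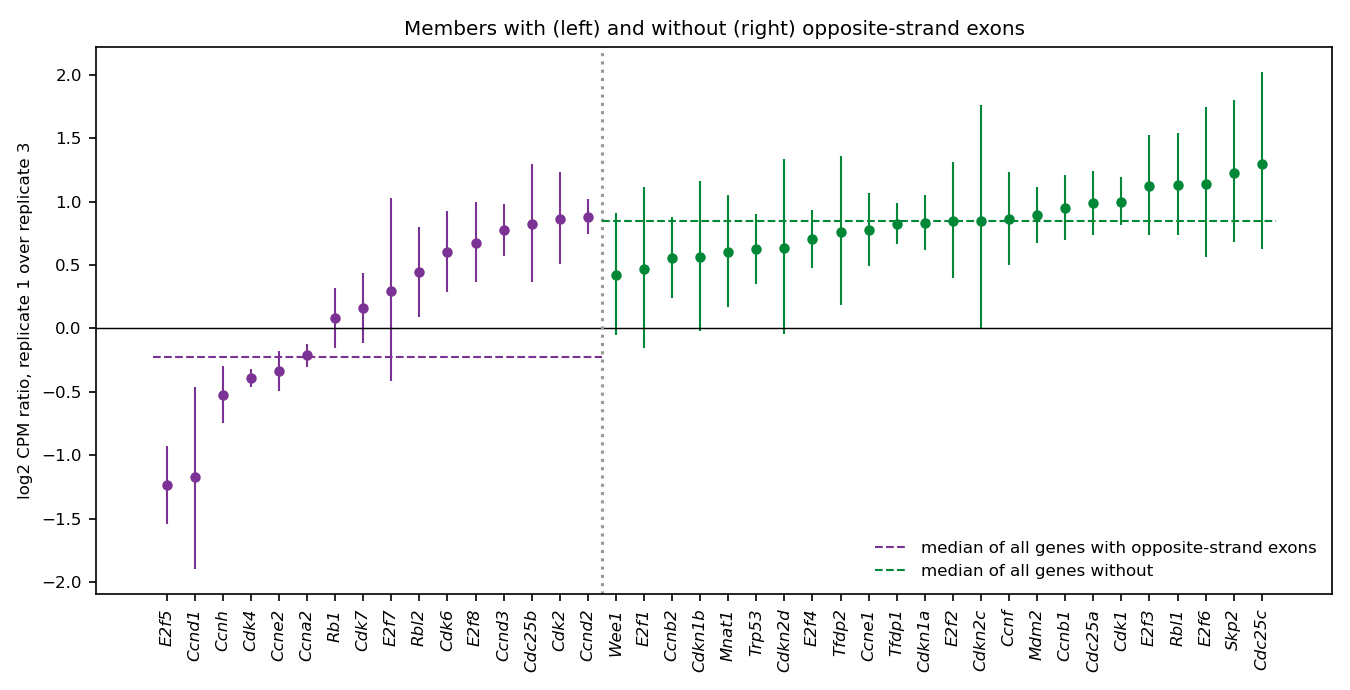
Log2 ratio of CPM, replicate 1 over replicate 3, for the 40 genes with at least 50 counts in both together, with 95% exact counting intervals. Genes with opposite-strand exons are at the left in purple and those without at the right in green, and dashed lines give the median of all genes of each kind, -0.22 and 0.84. All green points are above 0 in CPM, while 6 purple points lie below.

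Differences between the 3 libraries beyond counting error were tested gene by gene, by chi-square (2 degrees of freedom) after TMM scaling. Over all genes tested it called 63.2% (4681 of 7406, Benjamini-Hochberg adjusted p under 0.05 over all of them). Of the 43 cell-cycle genes 33 were tested and 18 called, a share no higher than that over all genes. The 10 left out by the filter on low counts were those with no count in the shallow replicate 2. They included Cdk2, Skp2 and Wee1, which had 224, 116 and 104 counts in replicate 1. The called genes with opposite-strand exons were Ccnd1, Ccnd2, Ccnd3, Cdk4, Ccne2, Ccna2, Ccnh, E2f5 and Rb1, 9 of 14 tested, against 74.6% of all genes of that kind in the same fit. Those without were Ccne1, Cdc25a, E2f3, Tfdp1, Ccnb1, Cdk1, Cdkn1a, Rbl1 and Mdm2, 9 of 19 tested, against 54.4%. The calls rest on particular libraries. Without replicate 1, 2 of 32 tested cell-cycle genes were called (Cdk4 and E2f3), against 9.47% of all genes tested. Without replicate 2 it was 11 of 40, against 37.9%, and without replicate 3 it was 1 of 33 (E2f3), against 3.65%. When the scaling and the test were run on genes with no opposite-strand exons alone, a setting added after the data were seen, 13.5% of genes were called (560 of 4136). Of the 19 cell-cycle genes in that fit 1 was called, E2f3, with an adjusted p of 0.00042 by this chi-square test on TMM-scaled counts over the 3 libraries (edgeR). The call rests on 9 counts in replicate 2, where few were expected and the approximation is rough.

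Genes that act with this machinery were detected as well. Of 17 known E2F targets, genes for DNA replication that E2F factors switch on, all 17 reached 1 TPM in each library. The highest were Pcna, the polymerase clamp, with 278, 172 and 119 TPM in replicates 1, 2 and 3, and Mcm3, a helicase subunit, with 214, 110 and 89.2 TPM. Rrm2, a ribonucleotide reductase subunit, had 198, 209 and 81.3 TPM. Their median log2(TPM + 1) was 6.26, 5.89 and 4.98, above that of the 43 regulators in each library.

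Of 17 p53 targets, 11 reached 1 TPM in all libraries and 16 in replicates 1 and 3. They were led by Ccng1 (cyclin G1) with 163, 176 and 66.4 TPM, Bax, which promotes cell death, with 72.6, 131 and 24.8 TPM, and Phlda3 with 34.8, 26.5 and 20.8 TPM. Of 17 further CDKs, cyclins and CDK-binding proteins, 13 reached 1 TPM in all libraries and 16 in replicates 1 and 3, and Cdk14 had no count in any. Besides Ccng1, the highest were the CDK-binding subunits Cks1b, with 136, 110 and 73.0 TPM, and Cks2, with 148, 59.7 and 53.5 TPM.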

How the data were processed

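The deposited values are whole-number counts of read pairs per gene, not normalized, with each gene's exonic length in bp as another column. Per the file headers the authors counted with featureCounts 1.4.6-p4, keeping pairs with both ends mapped, over exons of GENCODE M13 with strand setting 1, on alignments named star2. Per the labels, mm10 was the assembly. Neither the library kit nor the version of the aligner is given in the sources used here. The assay label is total RNA-seq, but the linked protocol carries poly(A)+ in its name.

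From these counts CPM, FPKM and TPM were computed here, with a pseudocount of 1 TPM for log2 values and a floor of 1 TPM for detection. Symbols were found for 50376 of 50600 genes, and biotypes came from GENCODE M21. Opposite-strand exons (8189 genes) were found with bedtools 2.31.1. Intervals are 95% exact Poisson or conditional binomial. Variation between libraries was tested by chi-square on TMM-scaled totals over genes kept by filterByExpr (edgeR 4.0.16, R 4.3.3), after the code was tested on simulated data. DESeq2 1.42.0 gave other size factors. No quasi-likelihood test (edgeR) was run, since there is no second group. Alternatives changed the floor, pseudocount, unit, scaling, filter and length correction, and left out each replicate in turn. The genes, pairs and lists were chosen with earlier results of these data known. All 43 genes are named, with up to 3 genes of each list by mean TPM in replicates 1 and 3, overlap partners, and Cxcr3, Il12rb2, Cdk14 and Ccnb2-ps, named after their values were seen.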

Additional observations from a re-analysis of the deposited data

How the results depend on the processing

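Detection in every library (33 genes) and the number of genes higher in replicate 1 than in replicate 3 (34 in CPM, 29 with TMM, 27 with DESeq2 size factors) stayed within 1.5 times under every alternative run. With at most 43 and 40 genes to count, neither number could rise by 1.5 times. For each of the 43 genes 1 count in replicate 2 is worth more than 1 TPM, so detection there means any count. The number of genes varying beyond counting error (18) moved most: it was 16 with DESeq2 size factors, 28 of 33 with library totals and 19 of 40 with a minimum of 10 counts in all, and 1 to 11 when a library was left out (2 without replicate 1, 11 without replicate 2, 1 without replicate 3). It was 1 of 19 on genes with no opposite-strand exons, against 13.5% of all such genes tested. Over all genes the called share was 63.2% (4681 of 7406), 54.3% with DESeq2 size factors, 88.5% with library totals and 45.5% with the minimum of 10 counts. It was 9.47% without replicate 1 (677 of 7147), 37.9% without replicate 2 (4167 of 11003) and 3.65% without replicate 3 (271 of 7427). Of 31 pairs with a ratio in at least 2 libraries, 25 had 1 sign in each, and 11 of 12 did among those with no opposite-strand exons, a setting with fewer pairs by construction and added after the data were seen. The log2 ratio of replicate 1 to replicate 3 turned from above to below 0 for Wee1, Cdk7, E2f7, Rb1 and Rbl2 with TMM. With DESeq2 size factors it did so for these and for E2f1 and Ccnb2. For Rbl2 it came to -0.012 with TMM and -0.12 with DESeq2 size factors, and for Ccnb2 to -0.00035 with DESeq2 size factors. Without length correction the mean log2 ratio turned to 0.65 for Ccnb1 over Ccnb2 and to 0.30 for Skp2 over Cdkn1b. With a library left out, E2f1 over E2f2 ranged from -0.35 to 0.23 and Cdc25b over Cdc25c from -0.17 to 0.31. In FPKM the median was 3.18 for activators and 2.60 for inhibitors. Their difference was 1.20 with means in place of medians and 0.13 among members with no opposite-strand exons. The cause of these shifts was not tested. No paired analysis was possible because there is 1 group. Replicate 2 limits any statement about a single gene: 38 of 43 genes had under 10 counts there.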

Other observations

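Further groups of regulators not described above were present. Of 12 checkpoint and G2/M kinases and their substrates, all 12 reached 1 TPM in each library, led by Plk1, a mitotic kinase, with 91.8, 93.9 and 34.4 TPM in replicates 1, 2 and 3, Aurka with 63.3, 97.9 and 32.3 TPM, and Aurkb with 59.1, 42.0 and 25.1 TPM. Of 12 subunits and regulators of the ubiquitin ligases SCF and APC/C, which destroy cyclins and inhibitors, 9 reached 1 TPM in all libraries and 12 in replicates 1 and 3. The highest were Cdc20, the mitotic activator of APC/C, with 179, 66.3 and 82.3 TPM, Skp1a with 124, 112 and 45.0 TPM, and Cul1 with 73.3, 61.3 and 34.7 TPM. Of 7 subunits and partners of the DREAM and MuvB complexes, which bind the TTTGAA word, 5 reached 1 TPM in all libraries and 7 in replicates 1 and 3, led by Rbbp4 with 52.2, 61.4 and 22.2 TPM, Mybl2 with 21.6, 44.6 and 10.95 TPM and Lin37 with 16.2, 29.7 and 4.75 TPM.

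Among the markers of other cell types, Cd8b1, a subunit of the CD8 co-receptor, had 21, 1 and 13 counts in replicates 1, 2 and 3, while Cd8a had none. Cd79a, a B cell receptor subunit, had 10, 0 and 22 counts, while Ms4a1, a B cell surface gene, had none. The T cell markers were led by Trac with 348, 221 and 119 TPM, Trbc2 with 309, 59.7 and 117 TPM and Cd4 with 251, 154 and 108 TPM.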
